A study of Homo sapiens with 33 samples.

Results

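SCC25 is an established head and neck squamous cell carcinoma (HNSCC) cell line, and its untreated controls were followed in culture for 6 consecutive days. Of the 33 libraries of the study, the 6 described here were all of the SCC25 libraries given phosphate-buffered saline (PBS), 1 library each on days 0, 1, 2, 3, 4 and 5. They are defined by their labels, but they and the gene lists were chosen with earlier results of these data known. The question was how gene expression moved with the day in culture when no drug was present. The study as a whole treated SCC25 and the lines SCC1 and SCC6 with cetuximab, an antibody against EGFR, at 100 nM, and sequenced bulk RNA daily beside PBS controls. The comparisons below also use the 5 SCC25 libraries given cetuximab on days 1 to 5, the 6 SCC1 and the 6 SCC6 libraries given PBS on days 0 to 5.

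All SCC25 cells grew in DMEM with 10% fetal bovine serum and hydrocortisone, a ligand of the glucocorticoid receptor, at 0.4 µg/mL. SCC1 medium held hydrocortisone at 1.0 µg/mL. SCC25 was plated at 12500 cells and the other lines at 25000 cells, treatment started 24 h after plating, and the medium with PBS or cetuximab was renewed daily, so the cells of a later day had been longer in culture after plating. Each group is 1 line grown in plastic, and nothing in the labels says that the libraries of different days came from separate experiments, so p-values measure the spread of these samples around a straight line and nothing wider. The SCC25 PBS libraries of days 0 to 3 were sequenced on lane 1 and those of days 4 and 5 on lane 2 of 1 flow cell, so a step between days 3 and 4 and a difference between lanes cannot be told apart.

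Squamous epithelium renews from basal cells that carry keratins 5 and 14. Cells that leave the basal layer switch to other keratins, among them keratins 4 and 13 in the lining of the mouth, and make the enzymes and scaffold proteins of the cornified envelope. Tumour lines of this tissue keep parts of that programme in culture. Epithelial cells also carry an interferon response, in which transcription factors bind the interferon-stimulated response element in the promoters of antiviral genes. The amino acid response works through the factor ATF4, and the antioxidant response through NRF2, each with its own set of targets.

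The response element is shown in the promoters of 4 interferon response genes that rose with the day (values below). The sequences are the 250 bases before the gene start in RefSeq's GRCh38.p14 annotation, with capitals marking each match to the element (GAAA, any 2 bases and GAAA again) or to its reverse complement. They lie at chr10:89392373-89392622 for IFIT1, chr1:78620198-78620447 for IFI44L, chr10:89332279-89332528 for IFIT3 and chr1:1013247-1013496 for ISG15, all on the plus strand. ISG15 was picked for display after its values were seen.
IFIT1: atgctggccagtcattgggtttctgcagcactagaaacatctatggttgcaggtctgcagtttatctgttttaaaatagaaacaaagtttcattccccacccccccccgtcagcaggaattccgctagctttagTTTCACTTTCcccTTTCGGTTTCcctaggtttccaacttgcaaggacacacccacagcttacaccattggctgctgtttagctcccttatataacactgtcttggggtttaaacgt
IFI44L: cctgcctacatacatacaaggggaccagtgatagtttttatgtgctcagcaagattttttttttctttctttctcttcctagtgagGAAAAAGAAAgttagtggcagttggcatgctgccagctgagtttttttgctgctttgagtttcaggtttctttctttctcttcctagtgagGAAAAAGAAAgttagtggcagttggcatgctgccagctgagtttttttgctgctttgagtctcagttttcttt
IFIT3: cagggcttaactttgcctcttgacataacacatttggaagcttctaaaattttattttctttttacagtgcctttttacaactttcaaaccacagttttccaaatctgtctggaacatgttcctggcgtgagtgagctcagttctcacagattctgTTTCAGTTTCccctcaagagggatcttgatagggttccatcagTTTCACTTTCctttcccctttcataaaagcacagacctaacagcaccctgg
ISG15: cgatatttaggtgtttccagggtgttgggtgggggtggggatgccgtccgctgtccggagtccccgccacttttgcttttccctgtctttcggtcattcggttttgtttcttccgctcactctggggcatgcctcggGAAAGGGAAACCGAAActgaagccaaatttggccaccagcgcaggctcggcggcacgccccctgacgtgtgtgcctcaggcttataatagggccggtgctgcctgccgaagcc
IFIT1 held 2 matches, 116 and 103 bases before the gene start. IFI44L held them 164 and 73 bases before its start, IFIT3 94 and 51 bases before, and the 2 matches of ISG15, 113 and 107 bases before, overlapped each other. Of the 38 interferon response genes with an entry in that table, out of 47 listed, 25 (65.8%) held the element on either strand of this window. Over all 27305 gene symbols with an entry the share, counted in the same way, was 3.71%. A match is a description of the letters and not evidence of binding. Among the 25 genes with the element 20 rose with the day, and among the 13 without it 11 rose.

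The libraries held 42018632 to 52144493 counts and 29438 to 30972 genes with a count, and the 50 most counted genes took 16.2 to 17.3% of the counts. The defining markers of squamous epithelium were present throughout, with a summed level that was 11527 CPM (a gene's count as a rate over the scaled library) on day 0 and 16780.1 CPM on day 5, and 7 of its 10 markers rose. The fibroblast markers summed to 180 to 230.4 CPM, and 4 of the 10, COL1A2, COL3A1, LUM and DCN, rose. Endothelial markers summed to 2.03 to 3.53 CPM. The leukocyte sum was 166 to 236 CPM and was carried by CD68, with CD3E and TYROBP at 0. The share of these marker changes in the results below was not tested. The days 2 and 5 libraries stood apart in how their counts followed the GC content of the genes, with correlations across genes of 0.22 and 0.33 against −0.16 to −0.11 in the other 4. With that dependence removed, counts of several lists moved, and examples not given beside their list were 2 rising and 3 falling for cholesterol and fatty acid synthesis (4 and 1 in the counts as deposited), 5 rising for ER stress (from 3) and 9 rising and 3 falling for glycolysis and the hypoxia response (from 12 and 1).

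Expression of 2147 of 20017 tested genes (10.7%) changed with the day (edgeR quasi-likelihood test of a slope in log2 per day, Benjamini-Hochberg adjusted p under 0.05). The slope was positive for 1418 genes (7.08%) and negative for 729 (3.64%), and the median slope over all tested genes was −0.00035 log2 per day. Of the 2147 genes, 563 moved in strict order of day over the 6 libraries. The median slope was 0.13 for the rising and −0.11 for the falling genes, 389 genes rose by at least 0.2 per day and 114 fell by at least 0.2 per day. Relative to day 0, the called rising genes stood at a median log2 difference of 0.15, 0.29, 0.39, 0.50 and 0.70 on days 1 to 5, and the called falling genes at −0.13, −0.22, −0.37, −0.44 and −0.54. These medians describe genes called on the same libraries and are no separate test. The first principal component held 61.9% of the variance and ordered the libraries by day, from −18.0 on day 0 through −9.75, −2.19, 3.01 and 7.60 to 19.4 on day 5. The count rests more on some libraries than on others, with 1090 genes without day 0 and 1207 without day 5, 1337 without day 1, and 1889 to 2279 without any other day.

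**Figure D1:**
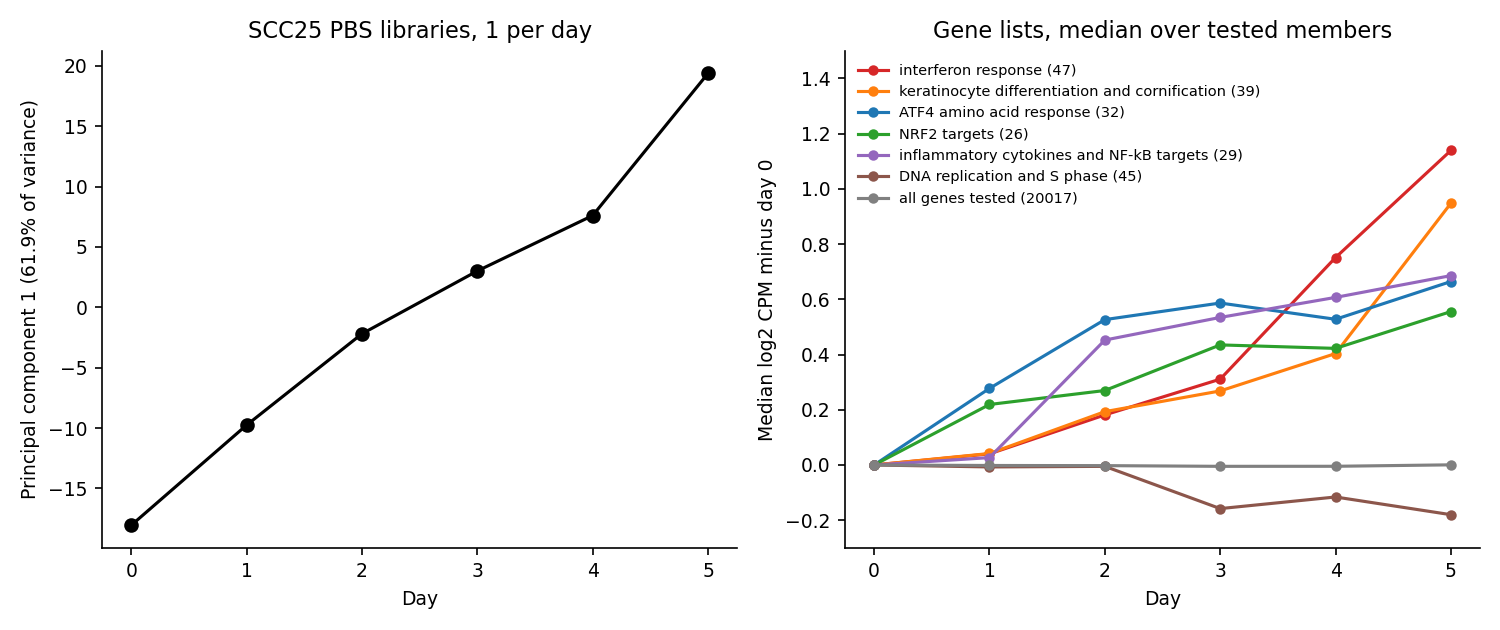
One panel plots the score of each SCC25 PBS library on the first principal component against the day, and the other plots the median log2 difference from day 0 of the tested members of selected gene lists. The score rises at each day from −18.0 to 19.4, the interferon response and keratinocyte differentiation lists move most between days 3 and 5, and the ATF4 list moves most between days 0 and 2.

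With the dependence on GC content removed, an alternative chosen after seeing the data, 2837 genes changed, 1542 rising and 1295 falling, so that 54.4% of the changes were rises, against 66.0% in the counts as deposited and 67.8% among the 16436 genes that have a GC value. The balance of rises and falls thus depended on this step. Of the 2147 genes, 2130 had a slope of the same sign within lane 1 alone, on days 0 to 3. The lane 1 libraries also took part in calling these genes, so that agreement is no separate test. With those 4 libraries only, 423 genes passed the test, and 304 of them rose (1.56% of the genes tested). With the lane as a covariate 305 genes passed.

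Of 53 genes of keratinocyte differentiation, 14 were at or near 0 and were not tested. Of the 39 tested, 20 rose, 19 did not pass and none fell by the edgeR test, with a median slope of 0.17 log2 per day beside −0.00035 over all genes. Keratin 13, KRT13 (chromosome 17, 39657233 to 39661957 on GRCh37, minus strand), a keratin of the suprabasal oral lining, measured 4.89, 9.54, 16.5, 30.2, 63.0 and 99.9 CPM on days 0, 1, 2, 3, 4 and 5. It thus rose at every step, 20.4-fold from day 0 to day 5, with a slope of 0.88 ± 0.02 log2 per day (SE, edgeR quasi-likelihood test, adjusted p = 7.67e-10). Its partner KRT4 was barely counted on day 0, at 0.0798 CPM, and reached 0.268, 0.388, 0.994, 2.06 and 7.27 CPM on the following days (slope 1.27 ± 0.07, adjusted p = 4.23e-07). TGM1, the transglutaminase that cross-links the cornified envelope, was at 2.93, 3.12, 4.90, 7.03, 10.8 and 21.5 CPM (slope 0.60 ± 0.04, adjusted p = 4.38e-06). Most of the TGM1 rise lay between days 3 and 5.

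The abundant members of that list moved less. KRT6A, a keratin of stressed and wounded epithelium, was at 2724, 2707, 3114, 3280.2, 3500.2 and 4431 CPM (slope 0.13 ± 0.02, adjusted p = 0.00117). KRT6A shares near-identical sequence with KRT6B and KRT6C, between which reads may be split with error. The sum of the 3 genes was 2789 CPM on day 0 and 4554 CPM on day 5, a 1.63-fold difference. EMP1, a membrane protein of differentiating epithelium, was at 211, 221, 247, 268, 280.2 and 264 CPM (slope 0.08 ± 0.02, adjusted p = 0.0187). The day 5 library carried part of the group: 13 members rose without it, 17 without day 1 or without day 4, and 20 without each other day. Within days 0 to 3, 8 members rose, with the lane as a covariate 7, and with the GC dependence removed 22 rose and 1 fell.

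Further surface and epithelial genes among the steepest were not on that list. LY6D (chromosome 8, 143866298 to 143867955, minus strand), a surface protein of stratified epithelium, rose at every step from 9.28 through 12.8, 21.2, 32.1 and 54.3 to 99.5 CPM (slope 0.69 ± 0.02, adjusted p = 1.07e-08). SERPINB13 (chromosome 18, 61254223 to 61271873, plus strand), a protease inhibitor of keratinocytes, was at 3.37, 5.41, 5.80, 8.92, 15.4 and 19.5 CPM (slope 0.51 ± 0.03, adjusted p = 2.55e-06). Placental-type alkaline phosphatase ALPP was at 31.4, 53.0, 65.6, 80.8, 109 and 151 CPM (slope 0.42 ± 0.02, adjusted p = 4.82e-07). ALPPL2, its near-identical neighbour, had lower values throughout, 2.19, 3.46, 4.10, 8.05, 12.2 and 24.5 CPM (slope 0.70 ± 0.04, adjusted p = 4.42e-07). Because reads of the pair may be exchanged, the sum is the safer value, and it was 33.6 CPM on day 0 and 175 CPM on day 5, 5.21-fold apart. ID1 (chromosome 20, 30193086 to 30194318, plus strand), a BMP-responsive inhibitor of helix-loop-helix factors, was at 11.4, 23.0, 35.0, 59.3, 79.9 and 108 CPM (slope 0.63 ± 0.03, adjusted p = 3.69e-07). The ID1 values climbed on every day while those of BMP4, a BMP ligand given below, declined.

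Of 20 genes of basal identity 6 rose and 2 fell, with a median slope of 0.01. KRT15 (chromosome 17, 39669997 to 39678781, minus strand), a basal keratin, rose most, at 11.8, 18.2, 25.7, 28.9, 48.3 and 69.2 CPM (slope 0.49 ± 0.03, adjusted p = 3.22e-07). KRT5 was at 4504, 4610.0, 5240.4, 5025, 5521 and 6502 CPM (slope 0.10 ± 0.02, adjusted p = 0.00694). KRT14 was at 2834, 2801, 3303, 3178, 3353 and 4307 CPM (slope 0.11 ± 0.02, adjusted p = 0.00817). DSG3, the basal desmosomal cadherin, was at 175, 173, 188, 227, 268 and 321 CPM (slope 0.19 ± 0.02, adjusted p = 0.000149). Basal and suprabasal keratins therefore rose in the same libraries, and single cells cannot be told apart in these bulk values. In bulk RNA, more cells of a kind and more RNA per cell cannot be told apart either. CD44, the hyaluronan receptor, was among those that fell.

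**Figure D2:**
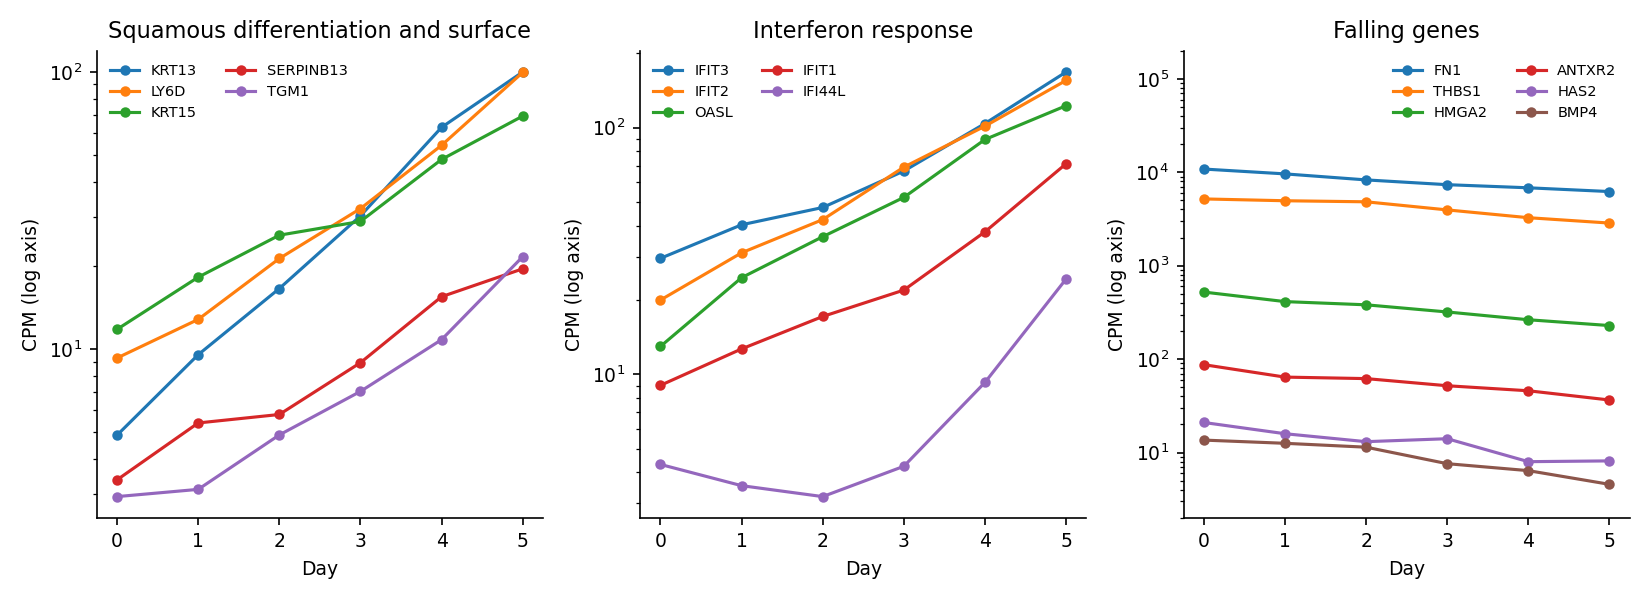
CPM on a logarithmic axis is plotted against the day for squamous differentiation and surface genes, interferon response genes and falling genes, with 1 point for each SCC25 PBS library. KRT13 climbs from 4.89 to 99.9 CPM and IFIT2 from 20.0 to 155 CPM, IFI44L stays between 3.19 and 4.31 CPM until day 3 and reaches 24.3 CPM on day 5, and FN1 declines from 10832 to 6220.1 CPM.

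Of 47 interferon response genes 39 rose, 8 did not pass the edgeR test and none fell, with a median slope of 0.23. The list stood at median log2 differences from day 0 of 0.04, 0.18, 0.31, 0.75 and 1.14 on days 1 to 5, so that the larger steps came after day 3. IFIT2 (chromosome 10, 91043451 to 91069028, plus strand), which binds translation initiation machinery in infected cells, was at 20.0, 31.1, 42.4, 69.1, 101 and 155 CPM (slope 0.59 ± 0.02, adjusted p = 2.25e-09). OASL (chromosome 12, 121455566 to 121477049, minus strand), a relative of the oligoadenylate synthetases, was at 13.0, 24.6, 36.1, 52.1, 89.5 and 123 CPM (slope 0.63 ± 0.02, adjusted p = 1.85e-08). Both rose at every step, 7.77-fold and 9.46-fold from day 0 to day 5. Their promoters are not in the table used above and are only named.

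IFIT1 and IFIT3, which hold the element shown above, sit beside IFIT2 on chromosome 10, and both rose at every step. IFIT1 (91152303 to 91166244), a sensor of foreign RNA caps, was at 9.02, 12.7, 17.1, 21.9, 37.8 and 71.4 CPM (slope 0.58 ± 0.03, adjusted p = 7.11e-07). IFIT3 (91087064 to 91137230), its binding partner, was at 29.5, 40.4, 47.4, 66.7, 104 and 168 CPM (slope 0.49 ± 0.03, adjusted p = 4.42e-07). ISG15, a ubiquitin-like modifier, was at 19.4, 20.2, 26.0, 32.2, 44.6 and 82.8 CPM (slope 0.41 ± 0.04, adjusted p = 3.78e-05). IFI44L (chromosome 1, 79085587 to 79111830, plus strand) had another shape. It was at 4.31, 3.54, 3.19 and 4.24 CPM on days 0 to 3 and at 9.27 and 24.3 CPM on days 4 and 5 (slope 0.53 ± 0.09, adjusted p = 0.00322), and its slope on days 0 to 3 alone was −0.02.

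Members at high levels moved less. IFITM3, which blocks virus entry, was at 162, 116, 154, 153, 233 and 243 CPM (slope 0.16 ± 0.04, adjusted p = 0.0201). LGALS3BP, a secreted glycoprotein, was at 306, 290.4, 317, 286, 305 and 382 CPM and did not pass the test (slope 0.05 ± 0.02, adjusted p = 0.221). The count of rising members was 38 to 40 when any one of days 0 to 4 was left out, 30 without day 5 and 40 with the GC dependence removed. Within lane 1, days 0 to 3, it was 14 of 47 with 2 falling, beside 1.56% rising over all genes, and with the lane as a covariate it was 14. Among genes of MHC class I and antigen processing, 7 of 17 rose and none fell (median slope 0.06). PSMB9, a subunit of the immunoproteasome, was at 25.8, 27.2, 27.8, 29.8, 33.1 and 37.2 CPM (slope 0.10 ± 0.02, adjusted p = 0.00520). ERAP1, which trims peptides for class I, was at 56.8, 61.7, 63.2, 68.9, 75.4 and 75.1 CPM (slope 0.09 ± 0.02, adjusted p = 0.00673). That list rested on day 5, with 1 member rising without it, and 4 rose without day 0 or without day 1. On days 0 to 3 none rose and 1 fell, and with the lane as a covariate none rose.

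Inflammatory cytokines and NF-kB targets rose in 17 of 29 tested genes, none fell by the edgeR test, and the median slope was 0.15. TNFAIP2, an NF-kB target, was at 11.5, 13.6, 17.0, 17.7, 24.2 and 36.8 CPM (slope 0.32 ± 0.03, adjusted p = 3.46e-05). CXCL8, the neutrophil chemokine, was at 2.43, 1.80, 3.41, 9.02, 10.3 and 14.8 CPM (slope 0.62 ± 0.07, adjusted p = 0.000103). SOD2, the mitochondrial superoxide dismutase, was at 128, 139, 158, 184, 195 and 206 CPM (slope 0.15 ± 0.02, adjusted p = 0.000192). The alarmin IL1A peaked on day 3, at 201 CPM, from 100.4 CPM on day 0, and stood at 159 CPM on day 5 (slope 0.15 ± 0.04, adjusted p = 0.0388). List medians relative to day 0 were 0.03, 0.45, 0.53, 0.61 and 0.69, so that the largest step fell between days 1 and 2. The count was 12 within days 0 to 3 and 11 with the lane as a covariate.

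Amino acid response genes moved early. Of the 32 listed as ATF4 targets 19 rose and 1, ATF5, fell, with a median slope of 0.11 and list medians of 0.28, 0.53, 0.59, 0.53 and 0.66 above day 0. GDF15, a stress cytokine, rose at every step, at 1.26, 2.41, 4.12, 6.63, 7.82 and 11.3 CPM (slope 0.59 ± 0.05, adjusted p = 8.98e-06). WARS, the cytosolic tryptophan tRNA ligase, was at 209.7, 261, 320.4, 364, 404 and 434 CPM (slope 0.21 ± 0.02, adjusted p = 4.83e-05). Asparagine synthetase ASNS, named after its values were seen, reached its highest value on day 3, with 33.5, 53.2, 73.0, 92.8, 80.9 and 81.9 CPM (slope 0.24 ± 0.05, adjusted p = 0.00999). The most abundant members, the 2 chains of the large neutral amino acid transporter, were lowest on day 0. SLC7A5 was at 1185, 1674, 1997, 1742, 1843 and 1982 CPM (slope 0.11 ± 0.03, adjusted p = 0.0592). SLC3A2 was at 699.9, 921, 1053, 998, 934 and 1109 CPM (slope 0.09 ± 0.03, adjusted p = 0.0616). Neither passed the test for a straight line. The count of rising members was 11 without day 0 and 26 without day 2, 15 to 20 without each other day, 18 within days 0 to 3, before the change of lane, and 17 with the lane as a covariate.

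NRF2 targets rose in 18 of 26 genes with none falling and a median slope of 0.10, and the list medians were 0.22, 0.27, 0.43, 0.42 and 0.56. AKR1C1 and AKR1C2 are aldo-keto reductases of near-identical sequence. AKR1C2 was at 57.1, 77.6, 91.1, 126, 117 and 179 CPM (slope 0.30 ± 0.03, adjusted p = 2.72e-05). AKR1C1 was at 68.8, 84.1, 99.8, 135, 124 and 182 CPM (slope 0.26 ± 0.03, adjusted p = 4.33e-05). The sum with AKR1C3 was 143 CPM on day 0 and 404 CPM on day 5, 2.82-fold apart, which does not depend on how reads were divided among the 3. The ferritin chains were the most abundant members. FTH1 was at 3210.0, 3286, 3931, 4141, 4242 and 4396 CPM (slope 0.10 ± 0.02, adjusted p = 0.00561), and FTL at 919, 1044, 1337, 1286, 1267 and 1312 CPM (slope 0.10 ± 0.03, adjusted p = 0.0353). Without a single day the count was 13 to 19, and it was 7 within days 0 to 3 and 7 with the lane as a covariate. Among ATF4 list genes with a promoter entry, 5 of 25 (20.0%) held TGATGNAA on either strand, against 3.89% of all gene symbols. On the NRF2 list 5 of 19 (26.3%) held TGACNNNGC, against 13.22%.

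Of 45 genes of DNA replication and S phase 10 fell and none rose (median slope −0.04), beside 3.64% falling over all genes, and the list medians relative to day 0 were −0.01, 0.00, −0.16, −0.12 and −0.18. Of 41 genes of mitosis 3 fell and none rose (median −0.02). Their medians relative to day 0 were 0.29, 0.25, 0.18, 0.14 and −0.05 on days 1 to 5, with 41, 37, 34, 30 and 19 of the 41 above day 0, a course that a straight line does not follow. RRM2, the regulated subunit of ribonucleotide reductase, was at 199.6, 198, 185, 159, 155 and 134 CPM (slope −0.12 ± 0.02, adjusted p = 0.00114). CLSPN, a checkpoint adaptor at replication forks, was at 83.3, 70.8, 62.7, 52.2, 55.1 and 53.8 CPM (slope −0.13 ± 0.02, adjusted p = 0.00347). The abundant MCM4, part of the replicative helicase, stayed between 310.2 and 351 CPM (adjusted p = 0.256), and RRM1, the other subunit of the reductase, between 234 and 262 CPM (adjusted p = 0.795). Of the mitotic genes, CDCA8 was at 65.0, 71.9, 70.2, 55.0, 54.9 and 48.6 CPM (slope −0.10 ± 0.02, adjusted p = 0.0183) and the spindle motor KIF11 at 108, 113, 102, 98.7, 98.1 and 82.4 CPM (slope −0.08 ± 0.02, adjusted p = 0.0256). The S phase count was 2 without day 0, 6 without day 5, 9 or 10 without each other day and 16 with the GC dependence removed. The mitosis count was 11 without day 0, 0 without day 1 or without day 5, and 2 or 3 otherwise.

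Genes listed together as cell cycle exit and FOXO targets rose in 10 of 30 cases with none falling (median 0.05), beside 7.08% rising over all genes. KLF4, a factor of epithelial differentiation, was at 42.2, 59.8, 72.6, 80.4, 86.8 and 106 CPM (slope 0.24 ± 0.02, adjusted p = 6.96e-05). CDKN1C, a cyclin-dependent kinase inhibitor, was at 3.79, 4.59, 6.19, 6.70, 6.40 and 8.30 CPM (slope 0.20 ± 0.04, adjusted p = 0.00304). CDKN1A, the p21 gene, rose at every step by a small amount, from 129.6 to 156 CPM, and missed the threshold (slope 0.05 ± 0.02, adjusted p = 0.0520). TXNIP was at 106 to 155 CPM with no order in the days (adjusted p = 0.270). The count of rising members was 4 without day 0, 5 without day 1 or without day 4, and 8 to 10 otherwise.

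**Figure D3:**
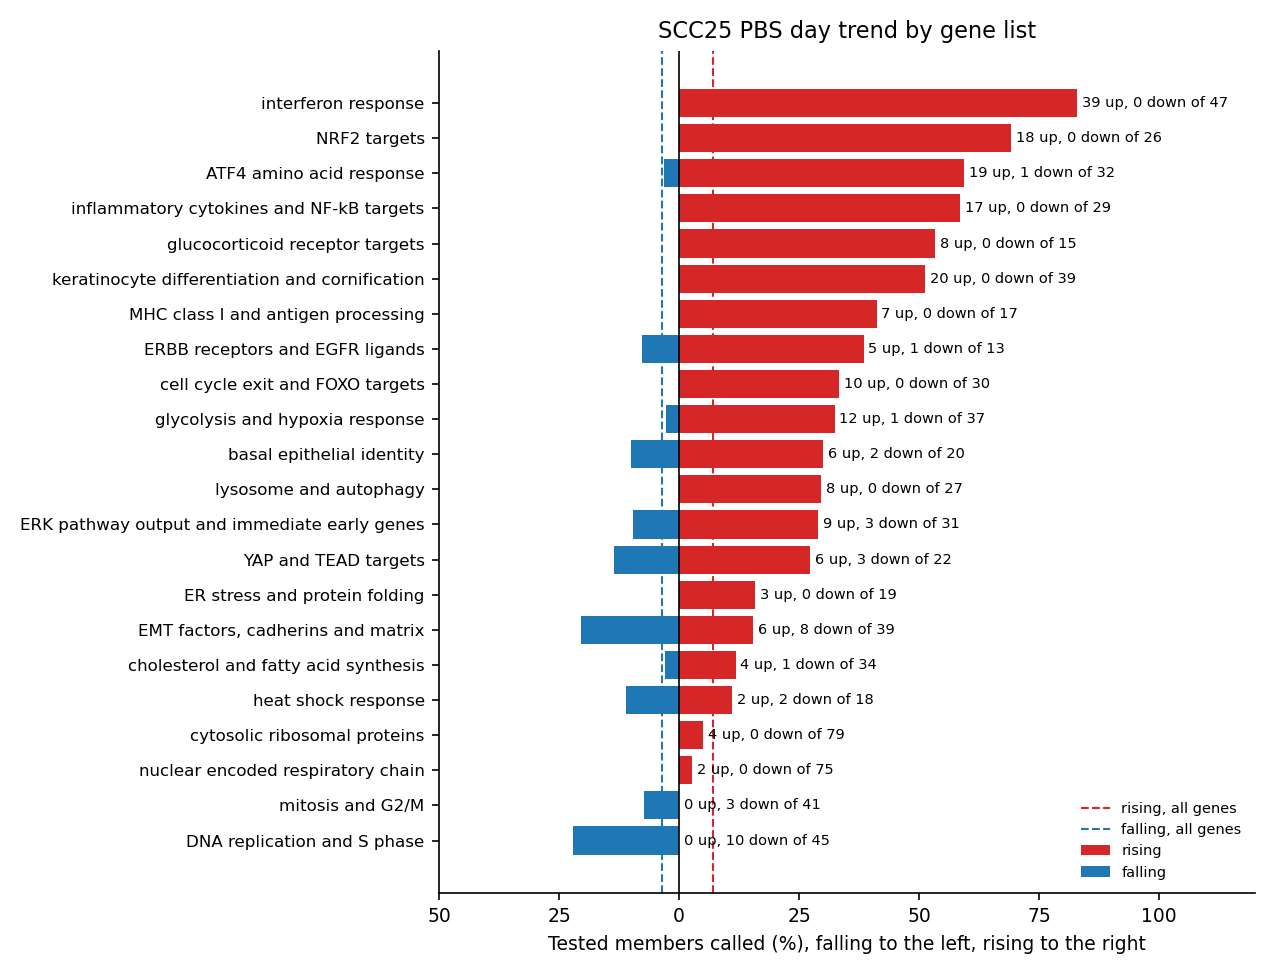
For each gene list the bars give the percentage of tested members that rose or fell with the day in SCC25 PBS, and the dashed lines give the percentage over all tested genes, 7.08% rising and 3.64% falling. The interferon response, NRF2, ATF4, cytokine, glucocorticoid and keratinocyte differentiation lists reach furthest in the rising direction.

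Matrix and mesenchymal genes included the most abundant genes that fell. Of 39 genes 8 fell and 6 rose, so the list as a whole had no direction (median −0.01), and with the GC dependence removed 9 rose and 14 fell. Fibronectin FN1 (chromosome 2, 216225163 to 216300796, minus strand) declined at every step, from 10832 through 9614, 8288, 7368 and 6823 to 6220.1 CPM (slope −0.16 ± 0.02, adjusted p = 9.39e-05). Thrombospondin THBS1 was at 5186, 4958, 4831, 3956, 3265 and 2861 CPM (slope −0.18 ± 0.02, adjusted p = 0.000245). VIM, the mesenchymal intermediate filament that the study follows, held at 1138, 1142 and 1189 CPM on days 0 to 2 and then stood at 948, 799.9 and 709 CPM (slope −0.15 ± 0.03, adjusted p = 0.00262). The fibroblast markers COL3A1 and COL1A2 were among the 6 that rose, so the members did not move as one. MMP1, an interstitial collagenase, was highest at both ends of the course, with 113, 61.2, 51.9, 67.7, 80.5 and 105 CPM (slope 0.02 ± 0.06, adjusted p = 0.914).

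Among called genes whose log2 CPM averaged 3 or more, the 12 steepest falls are named here. BMP4 (chromosome 14, 54416454 to 54425479, minus strand) declined at every step, with 13.6, 12.6, 11.4, 7.60, 6.40 and 4.57 CPM (slope −0.32 ± 0.03, adjusted p = 9.72e-05). HMGA2 (chromosome 12, 66218240 to 66360071, plus strand), a chromatin protein of embryonic and tumour cells, was at 522, 413, 381, 319.7, 264 and 229 CPM (slope −0.23 ± 0.02, adjusted p = 5.36e-06). ANTXR2, a matrix-binding receptor, was at 87.2, 64.2, 61.9, 51.9, 45.8 and 36.5 CPM (slope −0.23 ± 0.02, adjusted p = 2.72e-05). HMGA2 and ANTXR2 also declined at every step. HAS2, a hyaluronan synthase, was at 21.0, 15.9, 13.1, 14.1, 7.98 and 8.14 CPM (slope −0.27 ± 0.04, adjusted p = 0.000398). FST, the activin-binding follistatin, was at 283, 281 and 294 CPM on days 0 to 2 and at 236, 169 and 134 CPM afterwards (slope −0.23 ± 0.04, adjusted p = 0.00179). MYH15, SEMA5A, KIAA1549L, TFPI2, TNFRSF10D, FAM225A and CTD-2369P2.12 completed the 12. Day 5 values of these 7 genes were 0.393 (MYH15) to 0.507 (TNFRSF10D) times those of day 0, with FAM225A uncertain because FAM225B is a near copy.

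EGFR, the target of cetuximab, did not pass the test without the drug. The list of its family and ligands leaned upward, and ERK output genes showed no common direction. EGFR was at 925, 1025, 1032, 1023, 1015 and 1063 CPM (slope 0.03 ± 0.02, adjusted p = 0.374), with day 0 lowest. Of 13 genes listed with the ERBB receptors and ligands 5 rose and 1, LRIG1, fell (median 0.10). Of the 13 slopes 12 were positive. The ligand EPGN was at 2.19, 2.77, 2.85, 2.98, 4.79 and 7.79 CPM (slope 0.35 ± 0.05, adjusted p = 0.000857) and HBEGF at 41.8, 53.2, 69.3, 81.4, 77.5 and 73.9 CPM (slope 0.17 ± 0.04, adjusted p = 0.00915). With the GC dependence removed 7 rose and 1 fell. ERRFI1, an inhibitor of the receptor, peaked on day 3 at 443 CPM, from 189.6 CPM on day 0 (adjusted p = 0.0546). The ERBB count was 1 without day 0, 3 without day 1 or without day 4, and 5 or 6 otherwise. Of 31 ERK output and immediate early genes 9 rose and 3 fell (median 0.01), and with the GC dependence removed 9 rose and 7 fell. JUNB was at 72.6, 85.3, 117, 113, 133 and 178 CPM (slope 0.24 ± 0.02, adjusted p = 5.20e-05) and the phosphatase DUSP1 at 15.0, 16.6, 23.0, 28.4, 30.2 and 34.1 CPM (slope 0.25 ± 0.03, adjusted p = 7.00e-05). CCND1, cyclin D1, was at 1177 to 1342 CPM (adjusted p = 0.212). Among the further genes followed in the study, TFAP2A was at 56.5 to 63.0 CPM (slope 0.01 ± 0.02, adjusted p = 0.755) and CDH1, E-cadherin, at 259, 229.7, 238, 248, 292 and 323 CPM (slope 0.08 ± 0.02, adjusted p = 0.0573).

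The same slope was fitted to the 5 SCC25 cetuximab libraries of days 1 to 5, which the PBS trend did not use. There 33 of 20020 genes (0.165%) passed the edgeR test, 32 of them rising (0.16%), with 1581 at an unadjusted p under 0.05. That count was 0 without any one of days 1, 2, 4 or 5 and 1990 without day 3, so it depended on every single library. Cetuximab days 1 and 2 were sequenced on the flow cell of the PBS libraries and days 3 to 5 on another, and with a flow cell term, added after seeing the data, 0 genes passed, so a slope with the day and a difference between flow cells cannot be told apart there. Of the 1416 rising PBS genes tested there, 971 had a positive slope with cetuximab, and of 725 falling genes 524 had a negative one. The median cetuximab slope over all genes tested was 0.00085, so these counts are read against a near-even split of signs. Interferon response genes rose in 18 of 47 cases with cetuximab, and the median slope was 0.37, beside 0.23 with PBS over days 0 to 5. That count was 43 without day 3, 0 without any other day, 39 with the GC dependence removed, 35 with DESeq2 and 0 with the flow cell term. With PBS the ATF4 list stood 0.28 above day 0 on day 1, a step that no cetuximab library covers. With cetuximab the median slope was 0.14 for keratinocyte differentiation, 0.005 for the ATF4 list and 0.06 for NRF2 targets. No member of these 3 lists passed the edgeR test on the counts as deposited. With the GC dependence removed 10, 2 and 2 members rose, and with DESeq2 5, 2 and 2. Without the day 3 library 14, 5 and 10 rose while 2, 4 and 4 fell, and with the flow cell term none passed.

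For single genes the 2 slopes are given side by side, that with PBS over days 0 to 5 and that with cetuximab over days 1 to 5. IFIT1 had a slope of 0.58 with PBS and 0.80 with cetuximab, and IFIT2 had 0.59 and 0.65. KRT13 had 0.88 and 0.30, LY6D 0.69 and 0.22, and GDF15 0.59 and −0.03. The difference between the treatments was tested as a product of treatment and day over the 10 libraries of days 1 to 5, and 0 of 20740 genes (0%) passed the edgeR test, with 1275 at an unadjusted p under 0.05 and 30 called by DESeq2. At 5 libraries a treatment the slopes of KRT13, LY6D and GDF15 were therefore not shown to differ between PBS and cetuximab. That test shares its PBS libraries with the trend above. Without the cetuximab day 3 library 150 genes passed.

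**Figure D4:**
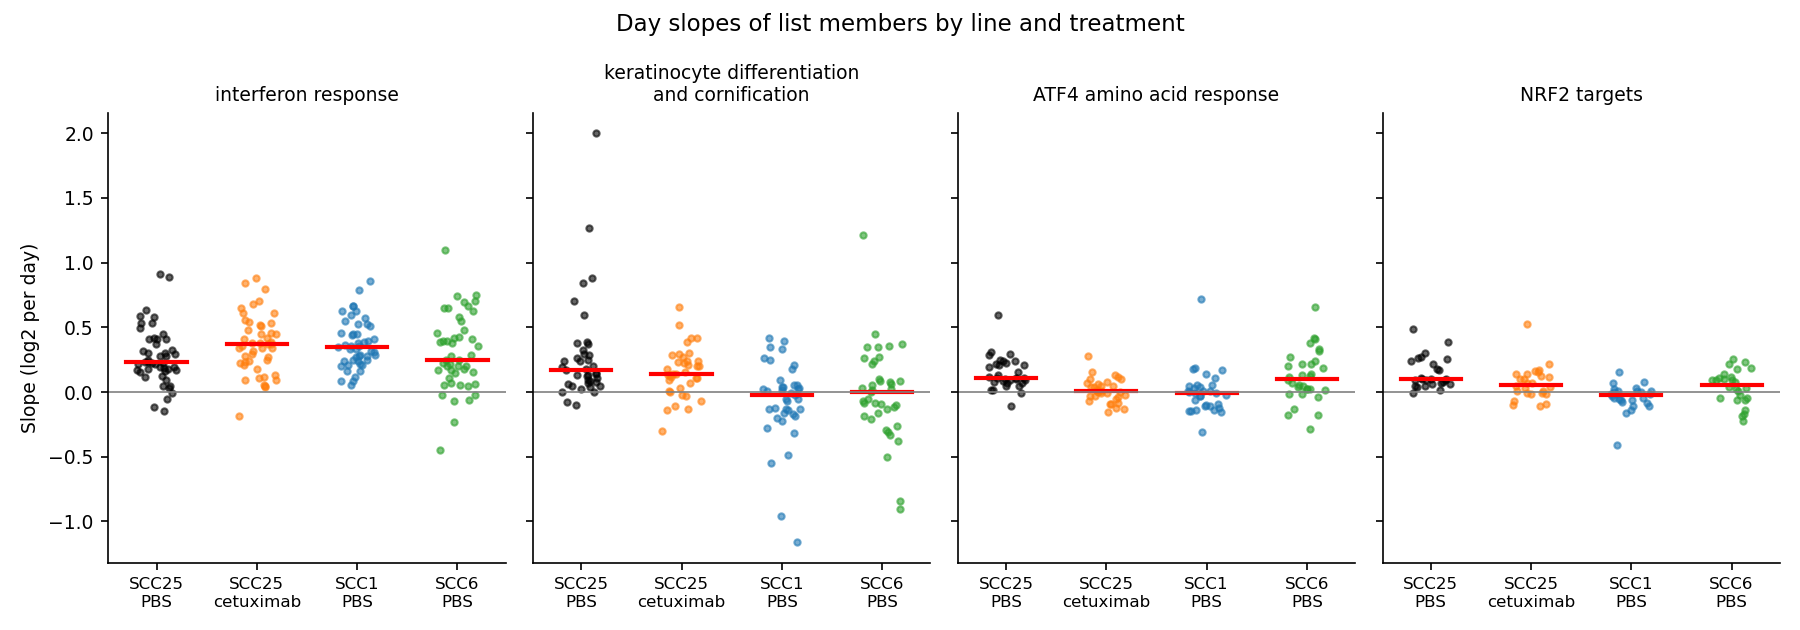
Each point is the slope in log2 per day of 1 gene of the interferon response, keratinocyte differentiation, ATF4 and NRF2 lists in SCC25 with PBS, SCC25 with cetuximab, SCC1 with PBS and SCC6 with PBS, and the red bar is the median. Only members that passed the filter in SCC25 PBS are drawn, also for the other groups. Interferon response medians are 0.23, 0.37 and 0.35 in SCC25 PBS, SCC25 cetuximab and SCC1 PBS, while the keratinocyte differentiation median is 0.17 in SCC25 PBS and −0.02 in SCC1 PBS. The ATF4 and NRF2 medians are 0.10 and 0.06 in SCC6 PBS, beside 0.11 and 0.10 in SCC25 PBS.

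The PBS slopes of the 3 lines were compared in 1 fit of 18 libraries, in which the SCC25 libraries are those of the trend above. SCC25 and SCC1 differed in 252 of 22028 genes (1.14%), 138 with the higher slope in SCC25 (0.626%) and 114 with the lower (0.518%). The count was 28 without the SCC25 day 0 library, 50 without day 5, 115 without day 4, 138 without day 1 and 193 or 208 without day 3 or day 2, so it rested on the ends of the SCC25 course. Libraries of the other lines were not left out in turn. The SCC25 libraries came from 1 flow cell, those of SCC1 from one on days 0 to 4 and from another on day 5. Of 21000 genes 738 differed on days 0 to 4 only (381 higher and 357 lower in SCC25), and 1086 of 23363 differed with a flow cell term (487 higher and 599 lower). Both alternatives were chosen after seeing the data. LY6D had a slope of 0.69 in SCC25 and of −0.69 in SCC1, a difference of 1.37 (adjusted p = 0.000342). KRT13 differed by 1.01 (adjusted p = 0.0130), TGM1 by 0.61 (adjusted p = 0.00763), ALPP by 0.73 (adjusted p = 0.0223) and KRT15 by 0.50 (adjusted p = 0.000342), each of them higher in SCC25. IL13RA2, the decoy receptor of interleukin 13, differed by −0.71 (adjusted p = 0.00534) and DOCK4, an activator of Rac, by −0.58 (adjusted p = 0.0473), both lower in SCC25. MMP1 also had the lower slope, with a difference of −0.69 (adjusted p = 0.0360). These 8 differences kept their sign and passed the edgeR test on days 0 to 4 only and with the flow cell term, and that of KRT13 was then 1.64 and 1.61.

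By list, 7 keratinocyte differentiation, 13 of 32 ATF4 and 5 NRF2 genes had the higher slope in SCC25, against 0.626% over all genes. Those counts fell to 3, 1 and 2 without day 0 and to 2, 5 and 1 without day 5. The ATF4 count was 8 without day 4 and 10 to 12 without each other day. On days 0 to 4 only the 3 counts were 11, 13 and 2, with the flow cell term 14, 15 and 4, and with the GC dependence removed the NRF2 count was 9. Interferon response genes were 0 higher and 1 lower. In SCC1 itself 40 of 47 interferon response genes rose (3.91% of all genes rose there), with a median slope of 0.35, so the rise was seen in both lines. In SCC1 the keratinocyte differentiation median was −0.02, with 5 genes rising and 3 falling. These SCC1 values and the count of 7 above cover the 39 members that passed the filter in SCC25 PBS. Members too low in SCC25 to be tested there are left out.

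SCC25 and SCC6 differed in many more genes, 5242 of 22028 (23.8%), with 2817 higher (12.8%) and 2425 lower (11%) in SCC25. The count was 2000 without the SCC25 day 5 library, 3038 without day 0 and 4233 to 5141 without each other day. In SCC6 18.5% of all genes rose and 17.6% fell, so shares in this comparison are read against a high background. The SCC6 libraries of days 0 and 1 came from one flow cell and those of days 2 to 5 from another, and none shared that of SCC25. On days 2 to 5 only 413 of 20409 genes differed (304 higher and 109 lower, 73.6% higher against 53.7%), and with a flow cell term 479 of 23363 differed (331 higher and 148 lower, 69.1% higher). Most of the 5242 calls therefore cannot be told apart from the change of flow cell within SCC6, which also falls within the SCC6 slopes given here. Slopes were higher in SCC25 for 14 keratinocyte differentiation genes, 10 without day 5, and for 13 of 20 basal genes. They were higher for 14 and 10 on days 2 to 5 only and for 10 and 10 with the flow cell term. In SCC6 13 of the 20 basal genes fell and none rose. Of 32 ATF4 genes 17 rose and 3 fell in SCC6 (median 0.10), and of 26 NRF2 targets 9 rose and 2 fell (median 0.06). Against SCC6 the slope in SCC25 was higher for 6 and lower for 3 ATF4 genes, and higher for 4 NRF2 targets. With the flow cell term no ATF4 gene or NRF2 target differed. S phase genes had the lower slope in SCC25 in 23 of 45 cases and mitosis genes in 13 of 41, and in SCC6 19 S phase genes rose. No gene of either list differed on days 2 to 5 only or with the flow cell term. With the GC dependence removed 16 S phase and 3 mitosis genes had the lower slope. The S phase count was 13 without the SCC25 day 0 library, 10 without day 5 and 12 with no filter, and the mitosis count 17 without day 0, 9 without day 1 and 2 without day 5. KRT6A differed by 1.04 (adjusted p = 2.87e-05), KRT6B by 1.05 (adjusted p = 2.07e-07) and TGM1 by 0.92 (adjusted p = 2.16e-05). OASL differed by 0.56 (adjusted p = 0.000567), while IFIT1, IFIT2 and IFIT3 differed by 0.19, 0.11 and 0.09, with adjusted p of 0.391, 0.487 and 0.567. Of the interferon response genes 23 of 47 rose in SCC6, 8 had the higher and 5 the lower slope in SCC25. On days 2 to 5 only 12 were higher and 1 lower, and with the flow cell term 4 and 2. The slope of PSMB9 was lower in SCC25, with a difference of −0.81 log2 per day (adjusted p = 2.16e-05). The differences of KRT6A, KRT6B, TGM1, OASL and PSMB9 kept their sign and passed the edgeR test on days 2 to 5 only and with the flow cell term, and IFIT3 passed on days 2 to 5 only (0.35, adjusted p = 0.0379).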

How the data were processed

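RNA of the 3 HNSCC lines was sequenced from stranded poly(A) libraries with an RNA integrity number of at least 7.0. The authors deposited 1 table of estimated counts for 56470 gene symbols, made with Salmon 0.8.2 and summed to genes with tximport, and the submitters' processing notes name hg19 and GRCh37. The annotation behind the symbols is not given in the sources used here. Estimated counts depend on how reads shared by similar genes were divided. Of the values in the 6 SCC25 PBS libraries 61.9% were whole, and 18398 symbols were at 0 in all 6. No strand setting is given for the counting.

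Counts were rounded to whole numbers, filtered with filterByExpr, TMM-normalised and fitted with edgeR 4.0.16 (glmQLFit and glmQLFTest, two-sided, in R 4.3.3), with the day as a number. With 1 library a day, 4 residual degrees of freedom describe the deviations from the line. The test also draws on the spread shared across genes, with a median of 8.38 prior degrees of freedom. Benjamini-Hochberg adjusted p under 0.05 over all genes tested was called. The slope of the 5 SCC25 cetuximab libraries, the product of treatment and day over 10 SCC25 libraries, and the contrasts of SCC25 with SCC1 and with SCC6 over 18 PBS libraries were tested likewise. CPM values are counts relative to the TMM-scaled library size, as edgeR's cpm function gives them. Lists are described by counts and medians, with no set test. The fits were also run on simulated counts with straight-line slopes and a fixed spread. That simulation held no lane, GC or curved-course effects and does not speak to those limits.

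Named genes were the 12 steepest called genes in each direction whose log2 CPM averaged 3 or more, up to 4 genes of each list (the 2 of smallest p and the 2 of highest mean CPM), TFAP2A, VIM, CDH1 and EGFR, and the 3 largest slope differences in each direction per line, at the same level. ASNS and ISG15 fall outside that rule. The libraries, lists and tests were chosen with earlier results of these data known. Coordinates are of GENCODE's annotation on GRCh37, with 34694 symbols matched directly and 1359 through older symbols, and promoters are RefSeq's on GRCh38.p14. Alternatives were DESeq2 1.42.0, limma-voom (limma 3.58.1), other scaling and filtering, a rank correlation, other shapes of the day, the lane, the flow cell or the day as a covariate, and leaving out each day. Removal of GC content or gene length trends (natural splines with 5 degrees of freedom) was added after seeing the data, as were a flow cell term in the cetuximab trend and in the line contrasts, and those contrasts on the days of 1 SCC1 or SCC6 flow cell.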

Additional observations from a re-analysis of the deposited data

Results flagged for a closer look

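Of 101 sets of 6 libraries examined, 3 held a library far from the others by Dixon's ratio, where chance gives about 1 in 20. LGALS3BP was highest on day 5, at 382 CPM. SLC7A5 was lowest on day 0, at 1185 CPM, and so was EGFR, at 925 CPM.

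The slope with the day differed between SCC25 and SCC1 in 252 genes and between SCC25 and SCC6 in 5242 genes by the contrast of slopes. Against SCC1 the differences were 1.01 for KRT13, 1.37 for LY6D, 0.61 for TGM1, 0.50 for KRT15 and 0.73 for ALPP. They were negative for IL13RA2 (−0.71), MMP1 (−0.69) and DOCK4 (−0.58). Against SCC6 they were 0.72 for LY6D, 0.56 for OASL, 0.41 for ID1, 0.92 for TGM1, 0.54 for KRT15, 0.75 for MMP1, 1.05 for KRT6B, 1.04 for KRT6A and 1.03 for the unannotated RP11-297P16.4. They were negative for GSTM4 (−1.15), SLCO2A1 (−0.94), PSMB9 (−0.81) and CTD-2369P2.12 (−0.52). RP11-297P16.4, GSTM4 and MMP1 did not change with the day in SCC25 itself by the edgeR test (adjusted p = 0.674, 0.139 and 0.914), and their slopes in SCC6 were −1.01, 1.21 and −0.74. With a flow cell term, and on the days that SCC6 shared a flow cell (2 to 5), some differences from SCC6 no longer passed the edgeR test. They were those of LY6D, ID1, RP11-297P16.4, GSTM4 and CTD-2369P2.12, at adjusted p of 0.396 to 0.976. The ID1 difference changed sign on days 2 to 5 only, to −0.14, and was 0.02 with the flow cell term.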

How the results depend on the processing

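The main limits are 1 library a day, a change of lane between days 3 and 4, and a GC dependence that sets days 2 and 5 apart. The 2147 genes that changed with the day were 2507 with DESeq2 (2023 shared), 2128 with limma-voom (2085 shared) and 1818 to 2272 with another scaling, no filter or another shape of the day. They were 1422 with an absolute slope of at least 0.1, 423 on days 0 to 3 only, 305 with the lane as a covariate (292 shared) and 1090 to 2279 without 1 day. A rank correlation called 0 of them, since its smallest exact p over 6 days is 0.00278, which 692 genes in strict order of day reached. With length trends removed 2307 changed, 56.6% rising. Dropping days leaves fewer samples. The lane covariate keeps all 6 libraries, uses 1 residual degree of freedom and removes the part of the slope that lies between lanes. The causes of the other moves were not tested.

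The cetuximab trend called 231 genes with DESeq2, 84 with no filter, 475 with GC removed (71.6% rising, against 97% before), 0 with a flow cell term and 0 to 1990 without 1 day. The difference between PBS and cetuximab called 30 with DESeq2, 12 with no filter, 34 with GC removed and 0 to 150 without 1 library. The difference from SCC1 called 640 with DESeq2, 610 with GC removed, 1086 with a flow cell term (44.8% higher, against 54.8%), 738 on days 0 to 4 only and 28 to 208 without 1 SCC25 day. The difference from SCC6 called 2484 with GC removed (64.1% higher), 479 with a flow cell term (69.1% higher), 413 on days 2 to 5 only (73.6% higher), 4117 with no filter (72.6% higher, against 53.7%) and 2000 to 5141 without 1 SCC25 day.

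With the day as a replicate block the difference from cetuximab called 1 gene, that from SCC1 172 and that from SCC6 4347. The same-day PBS and cetuximab residuals correlated by 0.03 to 0.69 and not above 0.1 on every day, so the days were not taken as pairs.

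Of 90 named genes, 84 kept direction and call with GC removed, 84 with DESeq2 and 54 on days 0 to 3. Slopes that changed sign were −0.024 for IFI44L, −0.017 for LGALS3BP, −0.015 for TFAP2A and CDH1 and −0.25 for MMP1 on days 0 to 3. With the lane as a covariate they were −0.0048 for TFAP2A and −0.198 for MMP1, with GC removed −0.0020 for TFAP2A and over log2(day + 1) −0.065 for MMP1. Without 1 day the slope ranged from −0.023 to 0.0087 for RRM1, from −0.0033 to 0.071 for LGALS3BP, from −0.0042 to 0.021 for TFAP2A and from −0.096 to 0.213 for MMP1. None of these slopes except that of IFI44L passed the test in the first place.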

Other observations

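The list counts of this section stand beside 7.08% rising and 3.64% falling over all tested genes. Metabolic and lysosomal genes rose in part. Of 37 genes of glycolysis and the hypoxia response 12 rose and 1, PFKFB4, fell (median slope 0.03). PFKFB3, which makes the activator of phosphofructokinase, was at 46.2, 48.6, 54.0, 60.5, 69.4 and 84.8 CPM on days 0 to 5 (slope 0.17 ± 0.02, edgeR adjusted p = 0.000103), and adrenomedullin ADM was at 44.8, 54.4, 66.5, 67.0, 67.1 and 86.3 CPM (slope 0.16 ± 0.02, adjusted p = 0.000960). The count was 3 within days 0 to 3 and 8 without day 0 or without day 1. Of 27 lysosome and autophagy genes 8 rose and none fell (median 0.04), with 3 without day 5, 4 without day 1 and 5 without day 0. GABARAPL1, an autophagosome protein, was at 43.8, 51.2, 57.4, 76.0, 90.8 and 96.9 CPM (slope 0.25 ± 0.02, adjusted p = 9.99e-06). CTSD, the lysosomal protease cathepsin D, was at 432, 546, 642, 608, 695 and 855 CPM (slope 0.17 ± 0.02, adjusted p = 0.000529).

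Glucocorticoid receptor targets rose in 8 of 15 genes with none falling (median 0.08). The count was 2 without day 0 and 5 without day 4 or without day 5. The medium was made with hydrocortisone at 0.4 µg/mL, its level on each day is not given, and a link to these rises was not tested. CEBPD, a factor of that list, was at 14.3, 19.8, 25.4, 28.9, 27.5 and 33.7 CPM (slope 0.22 ± 0.03, adjusted p = 0.000883). Of 22 YAP and TEAD targets 6 rose and 3 fell (median 0.04). IGFBP3, which binds insulin-like growth factors, rose at every step, at 169, 208, 253, 316, 444 and 547 CPM (slope 0.35 ± 0.02, adjusted p = 2.69e-07), and CCDC80 was 1.96-fold higher on day 5 than on day 0 (slope 0.19 ± 0.02, adjusted p = 0.000192).

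Of 79 cytosolic ribosomal protein genes 4 rose and none fell, and of 75 nuclear genes of the respiratory chain 2 rose and none fell (median slopes 0.03 and 0.02). Both lists nevertheless stood above day 0 on every later day. The ribosomal medians over day 0 were 0.19, 0.35, 0.23, 0.23 and 0.27 log2 on days 1 to 5, with 76 to 79 of the 79 genes above day 0. Those of the respiratory chain were 0.18 to 0.27, with 66 to 72 of the 75 above it. In cholesterol and fatty acid synthesis 4 of 34 rose and 1 fell, near the shares of 7.08% and 3.64% over all tested genes. SREBF1 was at 50.3, 46.8, 54.5, 57.2, 64.8 and 92.2 CPM (slope 0.17 ± 0.03, adjusted p = 0.00233). Folding genes were mixed. Of 19 ER stress genes 3 rose and none fell, with HERPUD1 highest on day 3 (90.1, 130.0, 141, 180.4, 173 and 159 CPM, adjusted p = 0.0140) and XBP1 between 80.1 and 111 CPM (adjusted p = 0.00666). Of 18 heat shock genes 2 rose and 2 fell, with HSPB1 at 357, 429.6, 521, 468, 534 and 736 CPM (adjusted p = 0.00131) and DNAJA1 at 195, 194, 188, 172, 163 and 129.5 CPM (adjusted p = 0.00561).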
